A study of Mus musculus with 502 samples.

Results

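Ptprc, the gene of CD45, and 7 other genes that most leukocytes express were followed across the kidney immune cells of this study. The members were taken by symbol from the count table, and all 8 were found, out of 46603 gene rows of which 20568 had a read in at least 1 of the 502 cells. The cells came from kidneys of CD1 wild type mice about 3 weeks old, either dissociated at once (fresh, 75 and 81 cells in 2 library pools) or kept whole at 4 °C in the organ preservative HTS-FRS for 6 h (76 cells), 1 day (75 cells), 2 days (78 cells), 3 days (82 cells) or 4 days (35 cells). All of them, fresh cells included, were sorted as propidium iodide negative (PI-) and Cd45+, so that the CD45 protein chose every cell in which its transcript was then counted. By the methods, the kidneys of a timepoint came from the same mouse, and the labels name no animal. A timepoint is therefore 1 sample, and cells are not replicates of it. The labels give a library pool number for each cell, and the pools are called A (75 fresh, all 6 h, all day 2 and 2 day 4 cells), B (81 fresh, all day 1, all day 3 and 19 day 4 cells) and C (14 day 4 cells). Timepoint and mouse cannot be told apart, and neither can, for most timepoints, preservation and the sampled mix of cell types.

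CD45 is a receptor tyrosine phosphatase of the surface of nucleated blood cells, known for removing the inhibitory phosphate from Src family kinases such as Lck and Lyn and so for setting the threshold of antigen receptor signalling. The other members serve the same cells in different places. Cd53 is a tetraspanin and Cd52 a small glycan-anchored peptide of the leukocyte surface, and Laptm5 is a lysosomal membrane protein that turns down antigen receptors. Coro1a (coronin 1A) and Lcp1 (L-plastin) bind actin filaments, Rac2 is a small GTPase of blood cells that drives actin polymerisation and the oxidative burst, and Arhgdib binds small GTPases and keeps them inactive in the cytosol.

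In the annotation GENCODE M21 of GRCm38 the members lie on 7 chromosomes and all code for protein. Ptprc (ENSMUSG00000026395.16) occupies chr1:138062861-138175708 on the minus strand, Cd53 chr3:106759921-106790149 (minus), Laptm5 chr4:130913125-130936141 (plus), Cd52 chr4:134082448-134095082 (minus), Arhgdib chr6:136923655-136941899 (minus), Coro1a chr7:126699773-126707787 (minus), Lcp1 chr14:75131101-75230842 (plus) and Rac2 chr15:78559167-78572783 (minus). Reads were counted without regard to strand, and exons of another gene on the opposite strand cover 14.5% of the exon bases of Cd52 (Crybg2), 7.97% of those of Arhgdib (Pde6h), 5.58% of those of Lcp1 (Gm15628 and Gm15629) and 0.934% of those of Coro1a (Bola2). Reads there cannot be assigned to one gene with certainty. Exons of Ptprc, Laptm5, Cd53 and Rac2 overlap no other gene.

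The upstream sequences of Ptprc and Cd53 are shown because, with Rac2, these members had the lowest shares of cells with a read on day 4 in pool B. They are bases upstream of RefSeq start sites on GRCm38.p6, without the base next to the Ptprc start, which lies in an annotated exon, and are read on the minus strand from 5′ to 3′, for Ptprc at chr1:138175307-138175555 and for Cd53 at chr3:106790150-106790399. The GENCODE span of Ptprc reaches to 138175708 on its 5′ side, so the Ptprc stretch lies within that span, outside annotated exons. Capitals mark GGAAGT or its reverse complement ACTTCC, a core sequence that ETS family factors of blood cells can bind, chosen after the sequences had been seen.
Ptprc: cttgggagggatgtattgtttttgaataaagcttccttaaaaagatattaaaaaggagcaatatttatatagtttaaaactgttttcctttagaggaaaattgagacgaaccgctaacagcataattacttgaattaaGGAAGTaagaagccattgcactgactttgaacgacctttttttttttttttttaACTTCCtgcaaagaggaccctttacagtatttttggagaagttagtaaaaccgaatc
Cd53: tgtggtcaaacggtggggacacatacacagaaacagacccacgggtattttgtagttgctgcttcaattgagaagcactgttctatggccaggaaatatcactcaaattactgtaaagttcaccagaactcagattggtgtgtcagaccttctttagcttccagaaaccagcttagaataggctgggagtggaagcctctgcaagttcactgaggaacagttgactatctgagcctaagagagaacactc
The Ptprc stretch holds 2 matches and the Cd53 stretch none. In the full windows of 300 bases, which run past the start, Ptprc has 2 matches and Cd53 has 1. Among 32851 RefSeq promoter windows, 19.7% hold a match within 250 bases upstream of the start. Entries were found for 6 of the 8 members, and 5 of their 11 windows hold a match, among them 2 overlapping windows of Ptprc that share 1 match and windows of Laptm5, Lcp1 and Arhgdib. Since the motif was chosen with these sequences in view, the counts are not compared with the background. A match is a run of letters in this window and was not tested as a binding site.

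The members were among the most widely read genes of the table. Over all 502 cells, with a gene taken as read in a cell at 1 or more counts, Laptm5 was read in 93.6% of cells, Coro1a in 93%, Ptprc in 90.8%, Arhgdib in 86.1%, Cd52 in 85.7%, Lcp1 in 84.9%, Rac2 in 84.1% and Cd53 in 77.3%. By this share Laptm5 ranked 28, Coro1a 33 and Ptprc 44 among all genes. Together the members took 1.27% of all counts on genes. Counts per 1000000 counts on genes (rpm) do not allow levels of different genes to be compared unless divided by length. Per kilobase of the longest coding transcript, the median cell held 1085 rpm of Coro1a, 934 of Cd52, 802 of Laptm5, 767 of Arhgdib, 360 of Rac2, 344 of Cd53, 310 of Lcp1 and 260 of Ptprc, which places the phosphatase lowest although it was one of the most often read. Reads carried no molecular identifiers, and the exact 95% intervals given here (Clopper-Pearson) cover counting error only.

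Totals on genes ran from 1759 to 1895431 counts per cell, with 8 cells under 100000. Median totals by timepoint lay between 502597 (day 1) and 962322 (6 h). The median number of genes with a read was 2649 and 1843 in fresh cells of pools A and B, between 1672.5 and 2136 from 6 h to day 3, and 1130 and 2987 in the day 4 cells of pools B and C. Median shares of mitochondrial counts lay between 2.02% (fresh, pool A) and 4.6% (day 4, pool B), leaving aside the 2 day 4 cells of pool A (1.54%). The 12 genes of kidney epithelium checked had a median detection of 1.59% of cells, but Atp1b1 was read in 14.5% (26.3% after 6 h and 26.9% on day 2), Fxyd2 in 12.7% (18.4% after 6 h, 20.5% on day 2 and 14.3% on day 4), Kap in 11.8% of cells after 6 h, Umod in 12.8% of day 2 cells and Epcam in 14.3% of day 4 cells, none of them of pool B. The 6 endothelial genes had a median detection of 0.896% and the 5 red cell genes one of 0.398%. Markers of one cell type were also read in cells grouped under another. The B cell receptor chains Cd79a and Cd79b were read in 1.85% and 3.7% of the cells with T cell markers and in 5.34% and 18.3% of those with C1q macrophage markers, Cd3d of T cells in 36.6% of cells with neutrophil markers and S100a8 of neutrophils in 26.4% of cells with monocyte markers. The same markers placed the cells in these groups, so these shares are no independent measure of stray reads.

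Ptprc was read in nearly every cell up to day 1 and in fewer cells later. It was read in 97.3% of the fresh cells of pool A (interval 90.7 to 99.7%) and in 97.5% of those of pool B (91.4 to 99.7%). At 6 h the share was 94.7% (87.1 to 98.5%), on day 1 97.3% (90.7 to 99.7%), on day 2 91% (82.4 to 96.3%) and on day 3 80.5% (70.3 to 88.4%). At day 4 the pools differed widely, with a read in 8 of 19 cells of pool B (42.1%, 20.3 to 66.5%), 12 of 14 of pool C (85.7%, 57.2 to 98.2%) and both cells of pool A. The day 3 and day 4 intervals of pool B lie below those of its fresh and day 1 cells, whereas the intervals within pool A overlap. How many of all genes have intervals apart in this way was not counted, and the changes of other widely read genes are given below.

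The median level of Ptprc per cell was lower at every later time than in fresh cells of the same pool, also on day 1, where the share was close to that of fresh cells. It was 1681 rpm in fresh cells of pool A (highest cell 9119) and 1937 in those of pool B (highest 8155), then 1386 after 6 h, 1156 on day 1, 1370 on day 2 and 833.6 on day 3 (highest 6098). In the day 4 cells of pool B the median was 0 and the highest cell held 5818 rpm, while pool C had a median of 862. The lowest cell of every pool and timepoint held 0, apart from the 2 day 4 cells of pool A, which held 89.8 and 1669 rpm. Cells with a trace were rare, since only 1 cell each from 6 h, day 1, day 2 and day 3, none of the fresh cells and 2 cells of pool C held 1 to 4 Ptprc reads. The ranges of the groups overlap. Among cells of pool B with a Ptprc read, the median was 1945 rpm fresh, 1196 on day 1, 1364 on day 3 and 249.8 in the 8 such cells of day 4, so that the medians of these cells, too, were below the fresh one. In pool A the medians of such cells were 1695 rpm fresh, 1412 after 6 h and 1390 on day 2.

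**Figure D1:**
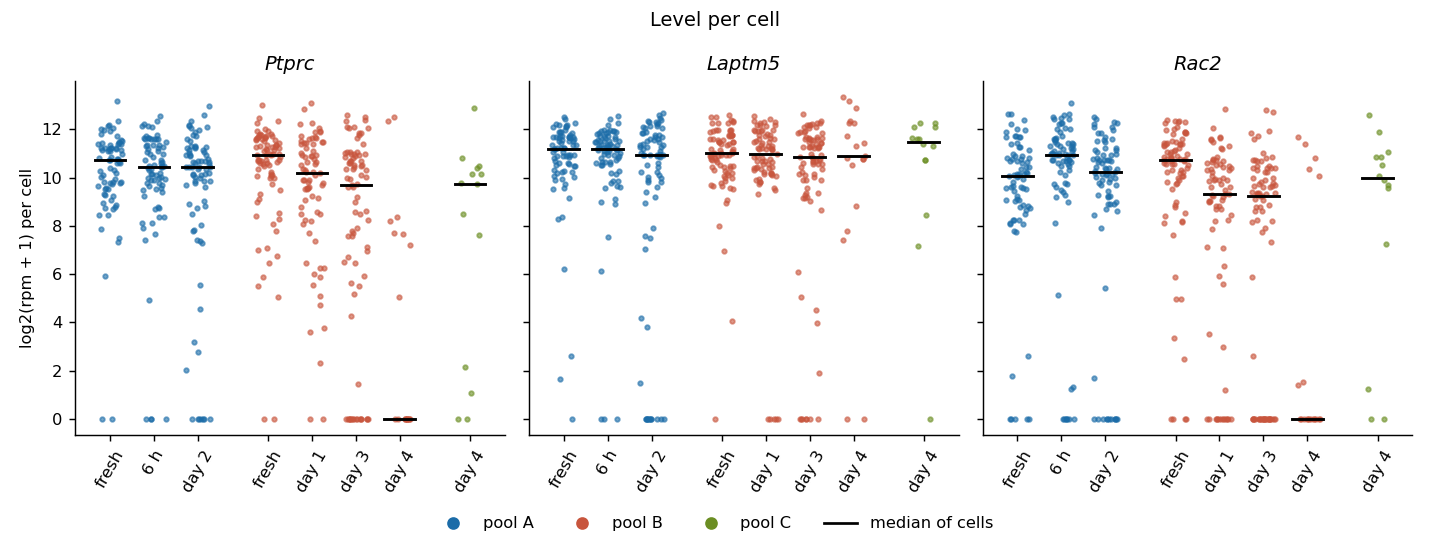
Level per cell of Ptprc, Laptm5 and Rac2, as log2(rpm + 1) on the vertical axis, by timepoint on the horizontal axis. Each point is 1 cell, colours are library pools, black lines are medians over cells, and the 2 day 4 cells of pool A are not drawn. The Ptprc and Rac2 medians of the 19 day 4 cells of pool B lie at 0, whereas that of Laptm5 (1921 rpm) is close to its fresh value.

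Laptm5, the lysosomal member, was the one most evenly kept in pool B. It was read in 98.7% and 98.8% of fresh cells of pools A and B, 96.1% of cells after 6 h, 93.3% on day 1, 84.6% on day 2 and 91.5% on day 3. At day 4 it was read in 17 of 19 cells of pool B (89.5%, 66.9 to 98.7%) and the interval begins just above the end of that of Ptprc in the same cells, 66.5%. Its median level ranged from 1825 rpm (day 3) to 2354 (fresh, pool A) among all timepoints up to day 3 and was 1921 in the day 4 cells of pool B. The lowest share was on day 2, in pool A, where 12 of 78 cells had no Laptm5 read and 11 of these were cells with B cell markers.

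The surface proteins Cd53 and Cd52 differed from each other in pool A. Cd53 had the lowest detection of the members after 6 h (80.3%), day 2 (59%) and day 3 (68.3%), against 94.7% and 91.4% of fresh cells in pools A and B, and stood at 42.1% in the day 4 cells of pool B. Its median level on day 2 was 131.9 rpm, against 801 in fresh cells of pool A. Cd52 was read in 92% of fresh cells of pool A, 90.8% after 6 h and 88.5% on day 2, so that the shares in pool A lay within each other's intervals. In pool B it was read in 96.3% of fresh cells, 78.7% on day 1, 73.2% on day 3 and 52.6% on day 4, with medians of 697, 232.8, 181.9 and 2 rpm.

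Among the actin regulators, Coro1a was read in 97.3% and 98.8% of fresh cells, 97.4% after 6 h, 90.7% on day 1, 92.3% on day 2, 87.8% on day 3 and 73.7% in day 4 cells of pool B. Lcp1 was the exception to the general order. It was read in 98.7% of fresh cells of pool A but in 84% of those of pool B (74.1 to 91.2%), and in 90.2% of day 3 cells (81.7 to 95.7%), where its median of 1717 rpm was above the 843 rpm of fresh cells of the same pool. Its day 2 share was 73.1% and its day 4 share in pool B 57.9%. The shares of the 2 fresh groups thus differ by more for Lcp1 than for any other member. Its fresh medians were 1690 rpm in pool A and 843 in pool B, and those of Arhgdib 844 and 1752.

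The GTPase Rac2 and the GTPase inhibitor Arhgdib had lower shares at each later time in both pools. Rac2 was read in 93.3% of fresh cells of pool A, 90.8% after 6 h and 85.9% on day 2, and in 95.1% of fresh cells of pool B, 82.7% on day 1, 69.5% on day 3 and 36.8% on day 4 (16.3 to 61.6%), the lowest share of any member in these 19 cells. Its median in pool B was 1717 rpm fresh, 646 on day 1, 598 on day 3 and 0 on day 4. Arhgdib was read in 93.3%, 92.1% and 79.5% of the pool A cells in order of time, and in 96.3%, 86.7%, 75.6% and 63.2% of the pool B cells. The intervals of the day 3 and fresh cells of pool B do not overlap for either gene. The share of all genes with such intervals was not counted, and the changes are set beside those of other genes below.

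**Figure D2:**
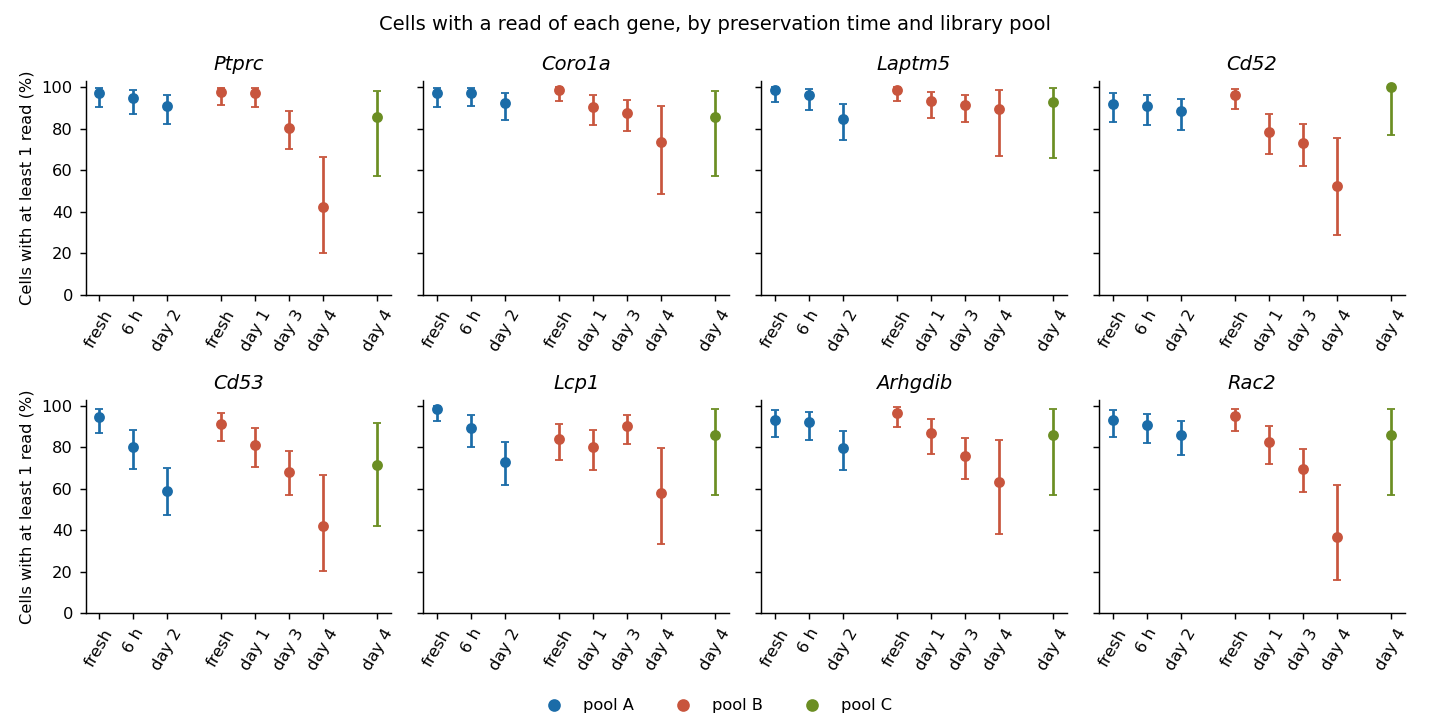
Share of cells with at least 1 read of each of the 8 genes, in percent on the vertical axis, by timepoint on the horizontal axis and library pool by colour. Bars are exact 95% intervals for counting error, and the 2 day 4 cells of pool A are not drawn. Laptm5 stays between 84.6% and 98.8% at every point, while Ptprc, Cd53 and Rac2 reach 42.1%, 42.1% and 36.8% in the day 4 cells of pool B.

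These shares have to be read against those of other genes that most fresh cells held. For the genes read in at least 80% of fresh cells of pool B, the median change of the share was -12.2 percentage points on day 3 (quartiles -19.5 and -6.08) and -26.3 points on day 4 (-36.8 and -15.8). Ptprc changed by -17.0 points on day 3, between the quartiles, and by -55.4 points on day 4, below them. Rac2 changed by -25.5 and -58.2 points, Cd53 by -23.1 and -49.3, Cd52 by -23.1 and -43.7, and Arhgdib by -20.7 and -33.1. Coro1a changed by -11.0 and -25.1 points and stayed close to the median of these genes, and Laptm5 changed by -7.30 and -9.29 points. Lcp1 differed by 6.29 points on day 3, the one member with a higher share than in fresh cells there, and by -26.1 on day 4. At day 2, for such genes of pool A, the median was -7.49 points with quartiles of -30.5 and 5.64. Cd53 (-35.7) lay below the lower quartile, and Lcp1 (-25.6), Laptm5 (-14.1), Arhgdib (-13.8), Rac2 (-7.44), Ptprc (-6.31), Coro1a (-5.03) and Cd52 (-3.54) lay between the quartiles. After 6 h the median was -3.74 points (quartiles -11.7 and 0.167), with Cd53 at -14.4 as the one member outside the quartiles. On day 1 it was -8.40 (-16.5 and -4.49), with Cd52 at -17.6 below the quartiles and Ptprc (-0.198) and Lcp1 (-3.95) above them.

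All 8 members were read together in 68.6% of fresh cells (60.7 to 75.8%), 63.2% after 6 h, 44% on day 1, 26.9% on day 2 and 31.7% on day 3. Of the day 4 cells, 2 of 19 in pool B (10.5%, 1.30 to 33.1%), 8 of 14 in pool C (57.1%, 28.9 to 82.3%) and 1 of 2 in pool A held all 8. A cell with 4 or fewer members was found once among the fresh cells and once among the 76 cells after 6 h, but 8 times on day 1, 8 times on day 2, 12 times on day 3 and 10 times on day 4, 8 of these in pool B. In 2 cells, both of day 4 and pool B, no member was read. The summed level of the members had medians over cells of 13778 rpm fresh, 13249 after 6 h, 9136 on day 1, 11662 on day 2, 9584 on day 3 and 10831 in the day 4 cells of pool B. The mean number of members read was 7.62 fresh, 6.91 on day 1, 6.37 on day 3 and 4.58 in those day 4 cells.

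Summing the counts of each timepoint and comparing them with fresh cells of the same pool weighs cells by their counts rather than by whether a read was found. Genes needed 50 counts in each sum, and a log2 ratio of at least 1 in size is called past the 2-fold mark. No member was past it after 6 h, where 21.5% of 10346 genes were past it upwards and 15.1% downwards. The members' ratios after 6 h ran from -0.46 (Cd53) to 0.61 (Rac2) with a median of -0.02, against 0.16 for all genes. None was past it on day 2 either, where the shares of all 9864 genes were 27.1% upwards and 18.4% downwards, and the members ran from -0.85 (Lcp1) to 0.44 (Cd52). The difference of mean log2(rpm + 1) over cells, in which cells at 0 weigh heavily, gave other values. By that measure Cd53 was past the mark after 6 h (-1.34), and Ptprc (-1.06), Laptm5 (-1.64), Lcp1 (-3.28) and Cd53 (-3.5) on day 2. The share of all genes past the mark by that measure was not computed, so these values have no background.

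In pool B, 2 of 8 members were past the mark downwards on day 1, Cd52 (-1.12) and Arhgdib (-1.08), and none upwards, beside 21% of 9492 genes downwards and 20.1% upwards. At day 3, Arhgdib (-1.22) and Cd52 (-1.08) were past it downwards and Lcp1 (1.09) upwards, beside 22.4% and 21.1% of 9325 genes. Ptprc had ratios of -0.34 and -0.47 at these times, with 1596 and 1459 CPM in the sums against 2023 in fresh cells. By the difference of mean log2(rpm + 1) Ptprc stood at -0.80 on day 1, -2.44 on day 3 and -6.54 on day 4. That measure moved 28 of the 40 member ratios of all comparisons by over 0.5, and no share of all genes was computed for it. With the sums, 4 of 8 members were past the mark downwards at day 4, Rac2 (-1.91), Ptprc (-1.24), Cd52 (-1.21) and Arhgdib (-1.15), and Lcp1 (1.52) upwards, beside 22.8% of 4952 genes downwards and 33.2% upwards. The direction of Lcp1 on day 4 depends on the measure, since its difference of mean log2(rpm + 1) was -1.11 and its share of cells was lower than in fresh cells. One cell gave 57.7% of the day 4 Ptprc counts, and the ratio without the cell with most Ptprc counts in each group was -2.29. Laptm5 stood at 0.03, -0.10 and 0.79 at the 3 times. Some of these ratios are close to the mark, and other scalings put them just short of it. With TMM factors Arhgdib on day 1 (-0.997) and Cd52 on day 3 (-0.996) fell short, and with DESeq2 size factors Cd52 on day 3 (-0.999) and Arhgdib on day 4 (-0.943). When all fresh cells replaced those of pool B, 3 of the 10 member ratios past the mark (2 on day 1, 3 on day 3 and 5 on day 4) stayed past it.

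The timepoints differ in which cells they hold, and the members differ between cell types. Cells were grouped by marker genes: a cell needed reads of at least 2 markers of a list and took the list with the highest mean level, which placed 482 cells and left 20 without a group. In 20.3% of cells 2 markers of more than 1 list were read, and in 17 of these cells the best lists lay within 1 log2 unit. Cells with T cell markers numbered 55 among the fresh cells but 6 of 82 on day 3, and cells with C1q macrophage markers numbered 16 among the fresh cells and 57 of 82 on day 3. In the T marker cells every member was read in at least 84.3% of cells, with medians of 2178 rpm for Rac2, 1749 for Arhgdib and 1658 for Ptprc. In the C1q marker cells the medians were 297 rpm for Rac2, 233.5 for Arhgdib, 95.7 for Cd52 and 777 for Ptprc, but 2756 for Laptm5 and 2114 for Lcp1.

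**Figure D3:**
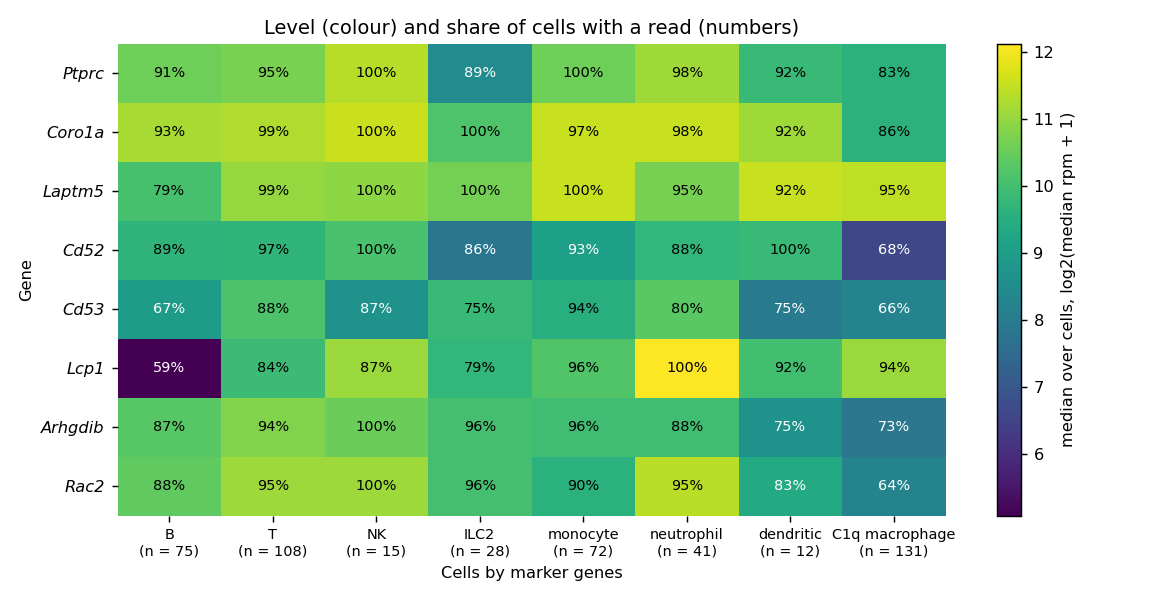
Median level of each gene (colour, log2 of the median rpm + 1) and share of cells with a read (printed percent) in cells grouped by marker genes, with the number of cells under each name. Lcp1 runs from 59% of the 75 cells with B cell markers to 100% of the 41 with neutrophil markers, and Rac2 is lowest in the cells with C1q macrophage markers.

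Lcp1 varied most between these groups, from a median of 32.7 rpm in 75 cells with B cell markers, 58.7% of which had a read, to 4432 rpm in 41 cells with neutrophil markers, all of which did. Cells with B cell markers also had the lowest share of Laptm5 (78.7%) and a low share of Cd53 (66.7%). Ptprc was read in all 72 cells with monocyte markers and all 15 with NK markers, in 97.6% of the neutrophil group, 95.4% of the T group, 90.7% of the B group and 83.2% of the C1q group. Its highest median was in the NK group (2600 rpm) and its lowest in 28 cells with ILC2 markers (352 rpm).

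Within one marker group the time order can be followed with fewer cells. In C1q marker cells of pool B, Ptprc was read in 8 of 8 fresh cells, 21 of 22 on day 1, 43 of 57 on day 3 and 5 of 11 on day 4, with medians of 1926, 656, 773 and 0 rpm. Laptm5 was read in 8 of 8, 19 of 22, 53 of 57 and 11 of 11 of the same cells, with medians of 3435, 2502, 2447 and 4849 rpm. Lcp1 was read in 8, 20, 56 and 10 of these cells and had a median of 2676 rpm fresh and 2588 on day 3, but over all 16 fresh C1q marker cells of pools A and B the median was 1585 rpm. Over those 16 cells, each with 1500 genes or more, the Ptprc median was 1248 rpm. Of the day 3 cells, 31 had as many genes and a Ptprc median of 1476 rpm. The other 26 had one of 0.863 rpm. Arhgdib had medians of 241.9 rpm fresh and 232.3 on day 3 in the C1q marker cells of pool B. In cells with T cell markers Ptprc was read in 54 of 55 fresh cells, 18 of 20 after 6 h, 6 of 7 on day 1, 17 of 18 on day 2, all 6 on day 3 and both on day 4. Cells with B cell markers on day 2 held Cd53 in 15 of 30 and Laptm5 in 19 of 30. All 17 fresh cells with B cell markers were of pool B, where Laptm5 was read in each of them, so these day 2 cells of pool A have no fresh counterpart in their own pool.

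Cells with fewer genes detected also had reads of fewer members, as they had of other widely read genes. Ptprc was read in 51.1% of the 47 cells with under 1000 genes (36.1 to 65.9%), 85.1% of the 74 with 1000 and under 1500, 95.8% of those with 1500 and under 2000, 96.8% of those with 2000 and under 3000 and all 61 with 3000 or more. The mean number of members read was 4.55, 6.38, 7.0, 7.54 and 7.90 in these bins. The members' summed level, by contrast, had medians of 9517, 11736, 11974, 11950 and 12044 rpm. Laptm5 was the most often read member in the lowest bin (70.2%) and Cd53 the least (42.6%). For the other genes read in at least 80% of all cells, the median share was 53.2, 74.3, 91.6, 97.4 and 100% across the bins, and the median over the 8 members was 55.3, 79.7, 87.3, 95.5 and 99.2%.

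Median totals in the lowest and highest bins were 445952 and 916001 counts. In 494 cells thinned to 100000 counts each and binned anew by the genes then detected, so that the bins hold other cells, Ptprc was read in 63.9, 90.5, 96.2, 98.8 and 100% of cells. Of the 47 cells with under 1000 genes, 6 were fresh, 7 from 6 h, 8 from day 1, 3 from day 2, 14 from day 3 and 9 of day 4. When these cells were left out, which was chosen after seeing the data, the Ptprc share was 92.6% of 68 cells on day 3. In pool B on day 4 it was 7 of 11 (63.6%, 30.8 to 89.1%), and in pool C 12 of 13 (92.3%). C1q marker cells were divided at 1500 genes, not at 1000. Ptprc was read in 24 of 44 with under 1500 genes (54.5%, 38.8 to 69.6%) and in 85 of 87 with 1500 or more (97.7%, 91.9 to 99.7%). Laptm5 was read in 84.1% and 100% of them and Lcp1 in 86.4% and 97.7%. Of those 44 cells, 26 were of day 3, 10 of day 4 and none fresh.

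**Figure D4:**
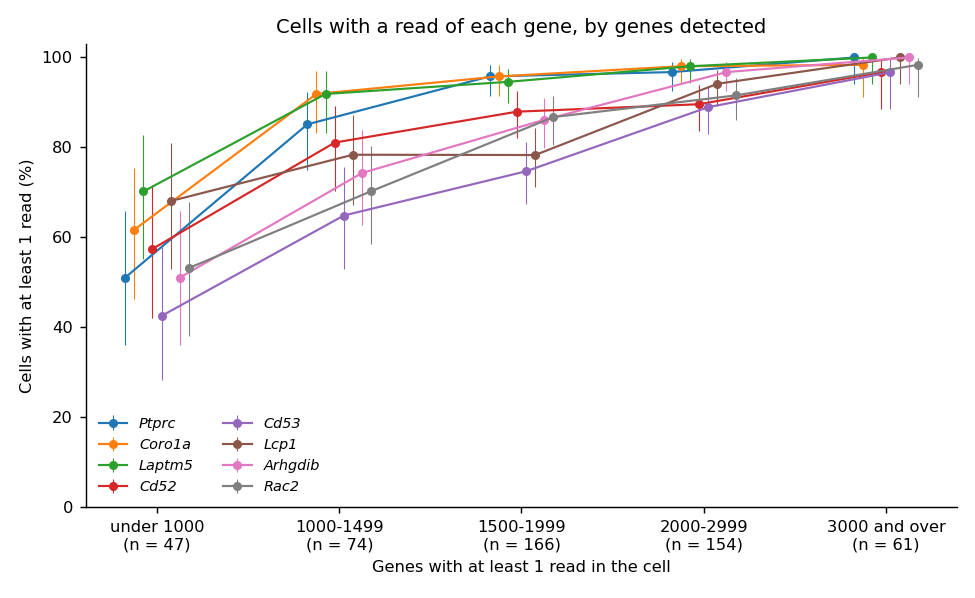
Share of cells with at least 1 read of each of the 8 genes, in percent on the vertical axis, in 5 bins of the number of genes detected in the cell on the horizontal axis, with exact 95% intervals. In the 47 cells with under 1000 genes the shares run from 42.6% (Cd53) to 70.2% (Laptm5), and in the 61 cells with 3000 or more from 96.7% to 100%.

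No Ptprc read was found in 46 cells: 4 fresh, 4 from 6 h, 2 from day 1, 7 from day 2, 16 from day 3 and 13 of day 4, of which 11 were of pool B. They had a median of 986 genes and 512800 counts, against 1938 genes and 706527 counts in the 456 cells with a read, and 4.31% against 2.94% mitochondrial counts. Most kept other leukocyte transcripts. A median of 5 of the 7 other members was read in them, against 7 of 7 in cells with Ptprc, and 27 of the 46 held at least 5. All 7 others were read in 3 cells and none in 2. The summed level of the other members was 9021 rpm at the median, against 10537.

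Laptm5 was read in 37 of the 46 cells (80.4%, 66.1 to 90.6%), Coro1a, Arhgdib and Rac2 in 30 each, Cd52 in 29, Lcp1 in 28 and Cd53 in 19 (41.3%, 27 to 56.8%). In cells with Ptprc the shares were 95% for Laptm5, 95.8% for Coro1a and 80.9% for Cd53. Where Laptm5 was read in cells without Ptprc, its median was 1900 rpm, against 2334 in cells with Ptprc, and Cd53 stood at 2075 rpm against 890. In the 23 cells without Ptprc and with 1000 genes or more, a division chosen after seeing the data, Laptm5 and Coro1a were each read in 91.3%, Cd52, Arhgdib and Rac2 each in 82.6%, Lcp1 in 65.2% and Cd53 in 52.2%. In cells with Ptprc and as many genes the shares were 96.3% for Laptm5, 96.5% for Coro1a, between 87.5% and 90% for Cd52, Lcp1, Arhgdib and Rac2, and 82.4% for Cd53. In the other 23, with fewer genes, Laptm5 was read in 16 (69.6%) and Coro1a in 9 (39.1%), against 70.8% and 83.3% of the 24 cells with Ptprc and under 1000 genes. At under 1000 genes the share of Laptm5 was thus nearly the same on both sides, and that of Coro1a was not. Arhgdib (47.8% against 54.2%) and Rac2 (47.8% against 58.3%) also differed by less than Coro1a. Cd52 was read in 43.5% against 70.8%, Lcp1 in 56.5% against 79.2% and Cd53 in 30.4% against 54.2%. The 2 sides differed in median totals too (302661 against 467447 counts) and in mitochondrial counts (4.88% against 1.56%).

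**Figure D5:**
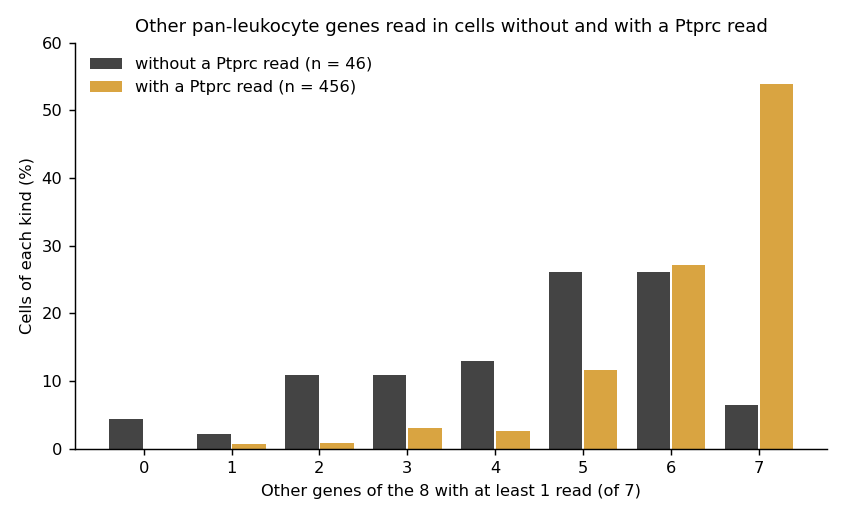
Number of the 7 other members read in a cell (horizontal axis) against the percent of cells (vertical axis), for the 46 cells without and the 456 cells with a Ptprc read. Cells without Ptprc are spread from 0 to 7 with most at 5 and 6 (12 cells each), whereas 53.9% of the cells with Ptprc held all 7.

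By markers, 22 of the 46 cells were in the C1q group, 7 in the B group, 5 in the T group, 3 in the ILC2 group, 1 each in the neutrophil and dendritic groups and 7 in none. All 8 genes checked that most cells use had a lower share in the 46 cells, with a median of 88% against 96.9%. Their medians were close for actin (Actb, 8466 rpm against 8112), thymosin beta 4 (Tmsb4x, 4810 against 4112) and B2m (2701 against 2871). The glycolytic enzyme Gapdh was read in 60.9% against 85.7%, at medians of 55.4 and 478 rpm, and ubiquitin Ubb in 84.8% against 97.6%, at 505 and 744 rpm. Of the 12 kidney epithelial genes 7 were at 0 in all 46 cells, and 13 of the 46 (28.3%) held a read of at least 1, against 35.1% of cells with Ptprc. Fxyd2, a subunit of the sodium pump, was read in 4 of the 46 at up to 1219 rpm, Kap in 4 at up to 164.5 rpm, the sodium pump subunit Atp1b1 in 3 at up to 937 rpm, Umod in 3 at up to 3.12 rpm and Epcam in 1 at 1407 rpm. Of the 6 endothelial genes 5 and of the 5 red cell genes 4 were at 0, but these genes were rare in all cells. A read of any endothelial gene was found in 2.17% of the 46 cells, against 5.04% of cells with Ptprc. For the red cell genes the shares were 2.17% and 2.85%. At least 1 other member was read in 44 of the 46. The part of other kidney cells in the missing Ptprc reads was not tested.

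Lower shares in cells without Ptprc were general: of 6540 genes read in at least 10% of cells, 96.7% had a lower share there, with medians of 8.70% against 20.8%, so the counts that follow are near that background. The wider list of 26 pan-leukocyte genes had a lower share in cells without Ptprc for every gene, 1 of which (Evi2b) was at 0 there, with a median share of 22.8% against 55.6%. Srgn, the core protein of the granule proteoglycan, was read in 41.3% against 83.6%, the integrin chain Itgb2 in 17.4% against 64%, Cytip in 19.6% against 66% and Lsp1 in 56.5% against 77.6%. Of 7 kinases that CD45 acts on or that oppose it, 6 had a lower share, among them Lyn (23.9% against 52.4%) and Csk, which places the inhibitory phosphate (17.4% against 48.2%), and Blk of B cells was read in 15.2% against 10.3%. Of 19 relatives of the members that many tissues express, 16 were lower, 2 (Pls1 and Arhgdig) had no read in any cell and Cd81 stood at 39.1% against 38.8%, with Rac1 at 58.7% against 67.3% and Cdc42 at 65.2% against 84.9%.

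Thinning made the totals equal, whereas the cells still differed in the number of genes and the mitochondrial share. In cells thinned to 100000 counts, 47 had no Ptprc read and 447 had one, and of 1775 genes read in at least 25% of these cells 1678 had a lower share in the former, with a median difference of -15.8 percentage points. Laptm5 (-12.9 points) differed by less than that median and every other member by more. These were Cd53 (-41.3), Coro1a (-28.7), Arhgdib (-23.6), Lcp1 (-22.9), Cd52 (-20.2) and Rac2 (-18.4). Laptm5, Coro1a and Cd53 kept the order seen with all counts. The genes with the most negative differences were Klf2, a transcription factor of resting lymphocytes (-46.6), the phosphatase Dusp1 (-46.3), the RNA gene Gm26917 (-45.5), Cytip (-44.2) and the splicing factor Srsf5 (-43.8). The most positive were the complement genes C1qa (24.8) and C1qb (20.3), Ptms (19.6), Cd74 (16.3) and Rpl37rt (16.3). C1qa and C1qb are markers of the largest group among the cells without Ptprc, and Rpl37rt is a retrotransposed copy whose reads cannot be told with certainty from those of its parent gene.

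Between cells, the members varied with only weak relation to each other. Over the 502 cells, which share sorting and library preparation and differ in depth, Pearson's r of log2(rpm + 1) between pairs of members ran from 0.01 (Laptm5 and Cd52) to 0.37 (Cd52 and Rac2), with a median of 0.21 over 28 pairs. Among 6541 genes read in at least 10% of cells, the profile most like that of Ptprc was that of Malat1, a long RNA kept in the nucleus (r = 0.53), followed by the RNA helicase Ddx5 (0.37) and Coro1a (0.33). Laptm5 was most like H2.D1 (0.41), a class I histocompatibility gene, Csf1r (0.31) and Msn (0.30). Lcp1 was most like Tyrobp (0.39), Fcer1g (0.38) and Cd14 (0.36), all genes of myeloid cells.

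Arhgdib was most like the actin-severing factor Cfl1 (0.45), Eno1 (0.37) and Rac2 (0.36), and Rac2 most like Ywhaz (0.40), Cd52 (0.37) and Cfl1 (0.37). Coro1a went with Actb (0.37), Pfn1 (0.36) and H2.D1 (0.35), Cd52 with Tmsb10 (0.39), Rac2 (0.37) and Cnn2 (0.36), and Cd53 with Arhgdib (0.28), Eif1 (0.27) and Coro1a (0.27). These values describe the cells at hand and are low throughout.

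The relation of Ptprc with Malat1 was weaker among cells with reads of both. Malat1 was read in 28 of the 46 cells without Ptprc (60.9%, 45.4 to 74.9%) and in 454 of the 456 with it, at medians of 88.9 and 3501 rpm. Over the 454 cells with reads of both, r was 0.16. It was 0.66 over the cells of pool B and 0.20 over those of pool A, but 0.09 over fresh cells of pool B and 0.42 over those of pool A, and 0.65 over the cells with under 1500 genes against 0.15 over the 381 with more. Within marker groups it was 0.68 in the C1q group and 0.29 in the T group. It was 0.08 in the monocyte group, 0.07 in the B group and -0.06 in the neutrophil group. Malat1 was read in 100% of fresh cells of pool B, 98.7% of day 1 cells, 87.8% of day 3 cells and 63.2% of the day 4 cells of that pool. Its medians there were 3365 rpm fresh, 5273 on day 1, 4551 on day 3 and 829.9 on day 4. No other member had an r with Malat1 above 0.25 over all cells.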

How the data were processed

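Single PI- Cd45+ kidney cells were sequenced by a SmartSeq2-type protocol. The authors cut reads to 75 bp, depleted duplicates (picard), aligned with STAR to GRCm38 and dropped cells under 1000 reads. HTSeq gave the counts, in intersection-strict mode and without strand. The sources used here give no versions for these tools. What was deposited is a table of raw, unnormalized counts for 502 cells.

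Rows that name no gene, 96 spike-ins (0.000185% of counts) and a vector (0.139%), stayed out of totals. Each cell's counts were scaled to 1000000 on genes (rpm), with a pseudocount of 1 on the log2 scale. Groups came from the time labels and pools from the numbers in the titles. With 1 sample per timepoint, no test between timepoints was made and no p-value was computed. Shares carry exact 95% Clopper-Pearson intervals. Sums were compared within pool, over genes with at least 50 counts in each sum. Thinning drew 100000 counts per cell without replacement and left out 8 cells. Doublets were not called. The genes named beyond the members are those of the marker and gene lists, the 3 genes with the highest r for each member, and the 5 genes with the most negative and most positive share differences. The members and lists were chosen with earlier results of these data known. Alternatives used edgeR 4.0.16 (TMM) and DESeq2 1.42.0 (size factors) in R 4.3.3, for scaling only. Scripts ran in Python 3.11.15, and sums and thinning were checked on simulated data. Positions come from GENCODE M21 and promoter sequences from RefSeq (GRCm38.p6).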

Additional observations from a re-analysis of the deposited data

How the results depend on the processing

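Of 346 recomputed values of 67 results, 300 stayed within the counting interval or within 0.5 of the reported one, 45 moved further and 1 turned its sign. Leaving out cells with under 1000 genes, added after seeing the data, gave Ptprc shares of 100% (day 1), 92.6% (day 3) and 80.8% (day 4, with 63.6% in pool B alone), a share of 91.3% for Laptm5 in cells without Ptprc and of 91.9% for Ptprc in cells with C1q markers. The day 4 Ptprc share of 62.9% over all pools was 42.1% in pool B alone, also added after seeing the data. The median number of members per cell at day 3 was 6 in place of 7, both at 5 reads or more and after thinning.

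TMM and DESeq2 factors moved none of the 40 log2 ratios by over 0.5 and left 8 of 10 past the 2-fold mark. The difference of mean log2(rpm + 1), which weighs cells at 0 heavily, moved 28 of them, with Ptprc at -1.06 (day 2), -2.44 (day 3) and -6.54 (day 4), and it turned Lcp1 at day 4 to -1.11. Without the cell with most counts, Ptprc at day 4 was -2.29. All fresh cells as the reference moved 3 ratios, all of Lcp1. No paired analysis was possible because the labels give no replicate numbers that timepoints share. The sums were compared within library pool, without a test. Shares of the day 4 cells rest on 19, 14 and 2 cells, and their intervals are wide.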
